A study of Mus musculus with 16 samples.

Results

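Macrophages that carry CD11c were compared with macrophages that do not, both sorted from the perigonadal fat of lean mice, over 8 of the 16 arrays of the series. The 8 arrays were taken by their titles alone: 4 of lean FB cells and 4 of lean FBC cells, with no measured value used in the choice. Cells of either kind were sorted as positive for F4/80 and CD11b, which mark macrophages, and were called FBC where they carried CD11c as well and FB where they lacked it. The lean mice were C57BL/6J Lep +/+ animals of 12 to 14 weeks, and the design text names 4 of them. The other 8 arrays hold FB and FBC cells, 4 arrays each, of obese mice of the same strain, tissue and ages that carry Lep ob/ob and so make no working leptin, and they entered the model only to share one estimate of the spread and for a closing comparison. All cells came from the stromal vascular fraction of enzyme-digested fat, and their RNA went through 2 rounds of amplification before it was hybridised to Affymetrix whole-genome mouse arrays of one design. The cell type entry of the FBC arrays reads CD11c-+, while their description gives CD11c+. The labels do not say whether each array stands for 1 mouse, so the p-values rest on a spread over arrays that may be technical in part.

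CD11c is the alpha X integrin chain, encoded by Itgax, which pairs with the common beta 2 chain to form a receptor for complement fragments and fibrinogen. It is widely used to mark dendritic cells, and in fat it also marks a population of macrophages that grows in obesity and gathers around dying adipocytes. Most resident macrophages of lean fat lack it, and they sit along vessels and take up debris. What the CD11c-positive minority of lean fat expresses is the question this comparison addresses.

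A level below is log2(intensity + 16) after quantile normalisation of the arrays, and a change is the mean level of the 4 FBC arrays minus that of the 4 FB arrays, so that a change of 1 is 2-fold. Values were tested with limma and adjusted by Benjamini-Hochberg over 11915 genes, and a gene is called higher or lower where the adjusted p is below 0.05. Arrays carry equal numbers in both groups, and a second limma model held the number as a block, that is, it compared FBC with FB within each number. The residuals of equally numbered lean arrays correlated at 0.135, 0.23, 0.299 and 0.595. Those of unequal number among arrays 1 to 3 correlated at 0.015 to 0.367. The correlations therefore cannot show that a number marks 1 mouse. Pairing by number was an assumption, and the value with the block is given wherever it changes the call.

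The sort was visible in the gene that encodes its marker. Itgax read 8.59, 8.74, 8.77 and 9.1 on FB arrays 1 to 4 and 9.69, 10.21, 10.39 and 10.89 on FBC arrays 1 to 4. The lowest FBC array lay above the highest FB array, with group means of 8.8 ± 0.22 and 10.29 ± 0.49 (SD, n = 4 each). The change was 1.49 with a standard error of 0.26 and an adjusted p of 0.0213 in the limma model, and 0.0103 with the block. Left out one at a time, 6 of the 8 lean arrays each took the adjusted p of Itgax past the threshold, to 0.083 at most without FB array 3.

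Both populations had the transcripts of macrophages. Adgre1, which encodes F4/80, read 12.95, 12.91, 12.99 and 12.73 on the FB arrays and 12.66, 12.63, 12.71 and 11.94 on the FBC arrays. All 4 FBC arrays lay below the FB arrays, yet the change of -0.41 did not pass (SE 0.23, limma adjusted p = 0.688). Itgam, which encodes CD11b, had a change of 0.17 (SE 0.29, limma adjusted p = 0.937). Csf1r, the receptor for macrophage colony-stimulating factor, had levels of 13.48 to 13.68 in FB and 13.51 to 13.58 in FBC, and Ccr2, the receptor that brings monocytes into tissue, 11.79 to 12.35 and 11.83 to 12.19. Of the defining dendritic cell markers, Ccr7 was called higher in FBC, with a change of 2.07 (limma adjusted p = 0.0351). Flt3 and Zbtb46 lay above the array median on all 8 lean arrays. Their changes of 0.58 and 0.87 were not called, with adjusted p of 0.712 and 0.481 in the limma model. Xcr1 lay below the median on all 8, and Clec9a was not measured.

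A pair of arrays stood apart. Signal at the 3' end of the actin control divided by that at its 5' end, which grows as RNA is degraded or amplified incompletely, was 53.3 on FB array 4 and 48 on FBC array 4, against 2.32 to 10.9 on the other 6 lean arrays. The first principal component of the lean arrays held 46.5% of the variance and separated the arrays of number 4 from the rest, and the second, with 18.6%, separated FB from FBC. FB array 4 also had the highest level of Siglecf, an eosinophil marker, at 11.98 against 7.98 to 8.53 on the other FB arrays, and of Ccr3, the eotaxin receptor, at 9.43 against 5.31 to 5.86. Prg2 and Epx, which encode eosinophil granule proteins, lay below the array median on all 8 lean arrays. The part of the actin ratio and of eosinophil transcripts in the results was not tested. Values without these arrays are given beside some of the results, and the calls kept without each lean array are counted further below.

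Few genes separated the populations beyond the spread of the arrays. In the model without the block 23 of 11915 genes were called (0.193%), 18 higher in FBC (0.151%) and 5 lower (0.042%), and an unadjusted p below 0.05 was reached by 974 genes (8.17%). With the block 51 genes were called (0.428%), 37 higher (0.311%) and 14 lower (0.117%). The 2 sets shared 22 genes, and 52 genes were called in at least 1 of the models. All 23 genes of the first set had groups that did not overlap, which 672 of all genes tested had as well (5.64%). Over all genes the median change was -0.00035, the middle part between the quartiles ran from -0.19 to 0.19, and the smallest change that was called was 0.98.

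**Figure D1:**
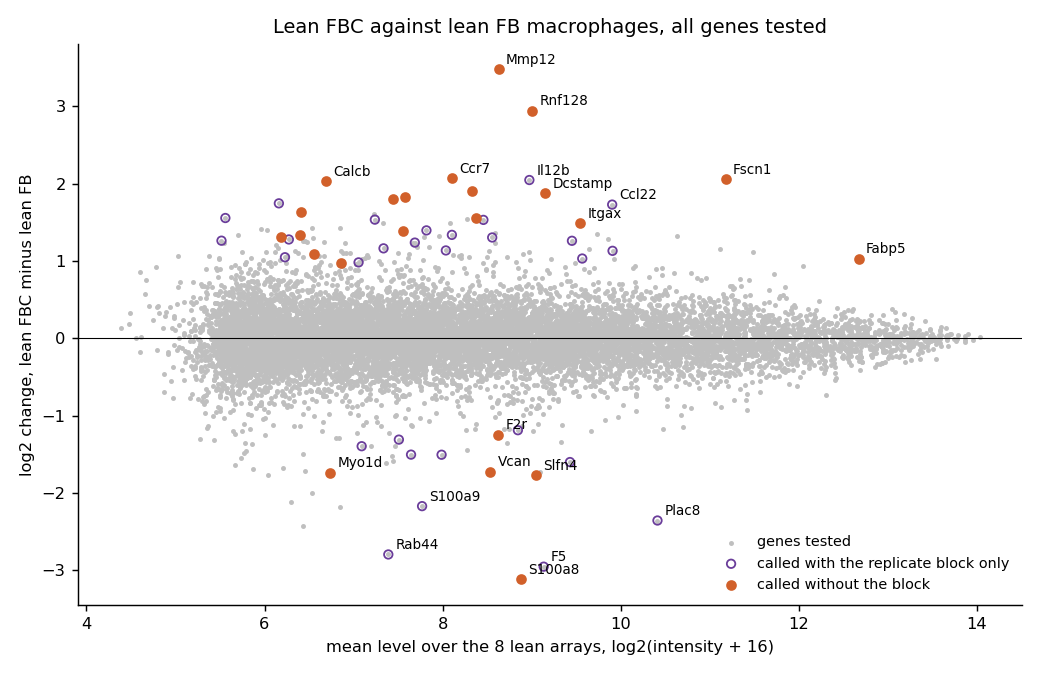
Log2 change from lean FB to lean FBC (vertical axis) against the mean level over the 8 lean arrays, log2(intensity + 16) (horizontal axis), for the 11915 genes tested, with the 23 genes called without the block as filled points and the 29 called only with it as open circles. Most genes lie near 0, Mmp12 and Rnf128 have the highest changes of the called genes, and S100a8, F5 and Rab44 the lowest.

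Mmp12 had the highest change of the called genes. It encodes macrophage elastase, a secreted metalloproteinase that cuts elastin and other matrix proteins. Its level was 7.33, 7.29, 7.4 and 5.54 on the FB arrays and 10.59, 9.92, 11.14 and 9.82 on the FBC arrays, so that the lowest FBC array was well above the highest FB array. The change was 3.48 (SE 0.55), an 11.1-fold difference, with a limma adjusted p of 0.013 and 0.00304 with the block. Without FB array 4, its lowest value, the change was 3.03 (limma adjusted p = 0.0244), and without FBC array 3 the adjusted p was 0.0562.

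Mmp12 and Itgax are both higher in FBC cells, and the sequence before their start sites is shown to set the 2 side by side. RefSeq promoters of the GRCm38.p6 build, each 250 bases before to 50 bases after an annotated start, were searched on both strands for letters bound by factors of myeloid cells: AP-1 as TGANTCA, C/EBP as TTGCNNAA, PU.1 as GAGGAAGT, and by name the IRF and kappaB consensus motifs. Capitals mark the matches. The Itgax promoter lies on the plus strand at chr7:128129300-128129599 and the Mmp12 promoter shown, the second of 2 listed, on the plus strand at chr9:7347124-7347423.
Itgax: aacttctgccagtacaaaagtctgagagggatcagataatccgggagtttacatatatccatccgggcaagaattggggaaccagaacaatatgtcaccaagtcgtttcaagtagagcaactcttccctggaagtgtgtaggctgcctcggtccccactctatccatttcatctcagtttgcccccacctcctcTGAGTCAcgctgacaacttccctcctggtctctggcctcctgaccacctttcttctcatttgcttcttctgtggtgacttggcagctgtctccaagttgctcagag
Mmp12: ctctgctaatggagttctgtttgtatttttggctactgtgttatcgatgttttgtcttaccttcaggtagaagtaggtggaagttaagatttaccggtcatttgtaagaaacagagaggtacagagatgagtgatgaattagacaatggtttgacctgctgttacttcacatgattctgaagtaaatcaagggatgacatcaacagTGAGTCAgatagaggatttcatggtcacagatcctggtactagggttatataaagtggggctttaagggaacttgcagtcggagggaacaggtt
Each holds 1 match to the AP-1 letters, whose first base is at -56 in Itgax and at -44 in Mmp12, counted from the start site. The first Mmp12 promoter, at chr9:7344147-7344446, holds C/EBP letters at -39 and PU.1 letters at -88. Of the 52 genes called in either model 37 have an entry in the table of 32851 promoters, 26 higher and 11 lower. AP-1 letters occur in 7.81% of all promoters and in those of 4 of the 26 higher genes, the other 2 being AA467197 and Pkn3. A gene was counted if any of its promoters held the letters, while the percentages are of single promoters. The counts and percentages are therefore not like measures. C/EBP letters occur in 10.8% of all promoters and in 3 of the 26 genes, PU.1 letters in 3.2% and in 1. The IRF consensus, found in 3.44% of all promoters, and the kappaB consensus, found in 4.51%, were in none of the 26. Motifs and the promoters shown were chosen after the calls were known, and a match is a string of letters, not a measured binding site.

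Rnf128 had the lowest adjusted p of all genes. It encodes GRAIL, a transmembrane ubiquitin ligase of endosomes best known for its role in T cell anergy. FB arrays read 7.37, 7.21, 7.33 and 8.23, and FBC arrays 11.09, 9.99, 10.39 and 10.44. The change was 2.94 (SE 0.27), 7.69-fold, with a limma adjusted p of 5.32e-05, and it kept its call in all 35 other settings. A second gene of the ubiquitin system, Fbxo32, which encodes the substrate-binding subunit of a cullin ligase, was also called, with a change of 0.98 (SE 0.18, limma adjusted p = 0.0351). It was named after its values were seen, since it fell outside the naming rule.

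Genes of dendritic cell migration and of chemokine signalling were among the higher genes. Ccr7, the receptor that guides dendritic cells to lymph nodes, had levels of 6.85, 6.96, 7.27 and 7.18 in FB and 8.42, 9.69, 9.6 and 8.84 in FBC. Its change was 2.07 (SE 0.38, limma adjusted p = 0.0351), and 7 of the 8 lean arrays each cost the call when left out, with an adjusted p of up to 0.126. Fscn1 encodes fascin, the protein that bundles actin into the protrusions of mature dendritic cells. It read 10.13, 10.44, 10.21 and 9.82 in FB and 12.04, 12.08, 11.95 and 12.76 in FBC, a change of 2.06 (SE 0.29, limma adjusted p = 0.00815). Of its 3 other probe sets 1 had the same sign, and with the mean of its probe sets the change was 0.59 and did not pass, so the size rests on 1 probe set.

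Ccl22 and Ccl17 are the 2 ligands of the chemokine receptor Ccr4, by which dendritic cells and macrophages draw in T cells. Ccl22 read 8.57, 8.88, 9.27 and 9.45 in FB and 10.32, 10.64, 10.8 and 11.32 in FBC, higher within every number by 1.53 to 1.87. Its change of 1.73 had an adjusted p of 0.0571 in limma without the block and of 0.00304 with it. For Ccl17 the change was 1.26, with adjusted p of 0.0757 and 0.0309 in the same models. Il12b, the p40 chain shared by interleukin 12 and interleukin 23, had a change of 2.05 and adjusted p of 0.118 and 0.0226 in limma without and with the block. FBC array 4 was the lowest FBC array of Il12b at 8.91, and FB array 4 the lowest FB array at 6.91, so the difference within number 4 was close to those of the other numbers.

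Other higher genes act in cell fusion, in lysosomes or in the handling of lipids. Dcstamp, a membrane protein needed for the fusion of macrophages and osteoclast precursors, had levels of 8.11 to 8.39 in FB and 9.79 to 10.75 in FBC (change 1.88, SE 0.34, limma adjusted p = 0.0313). Without FB array 4 its limma adjusted p was 0.0548, and without FBC array 4 it was 0.0891. Atp6v0d2, a subunit of the proton pump of lysosomes and osteoclasts, had a change of 1.53 and was called only with the block (limma adjusted p 0.0901 without and 0.0429 with it). Mreg encodes melanoregulin, which acts in the transport of melanosomes and lysosomes, and its change was 1.80 (SE 0.30, limma adjusted p = 0.017). Lhfpl2, a tetraspan membrane protein, changed by 1.82 (SE 0.27, limma adjusted p = 0.0112), and by 0.65 without a call when its probe sets were averaged.

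Fabp5, a fatty acid binding protein of macrophages and skin, was high in both populations. It read 12.23, 12.18, 12.15 and 12.09 in FB and 12.94, 13.17, 13.34 and 13.32 in FBC. The spread within the groups was small (SD 0.06 and 0.18, n = 4 each), and the change of 1.03 passed (SE 0.18, limma adjusted p = 0.0213), as did 1.58 with the mean of its 2 probe sets (0.00371). Slc27a3, of the family of fatty acid transport proteins with acyl-CoA synthetase activity, had a change of 1.63 (SE 0.25, limma adjusted p = 0.013), from a mean FB level below the array median, so its size is imprecise. Genes tested had to lie above that median on at least 4 arrays, and Slc27a3 passed only with its lean FBC arrays. Upb1, the enzyme of the last step of pyrimidine breakdown, was higher by 1.56 (SE 0.25, limma adjusted p = 0.013).

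Other higher genes act in signalling. Calcb encodes the beta form of calcitonin gene-related peptide. It read 5.6, 5.92, 5.66 and 5.53 in FB, with a mean below the array median, and 6.98, 7.7, 7.82 and 8.34 in FBC. The change was 2.03 (SE 0.26, limma adjusted p = 0.00286), with all FBC arrays above all FB arrays. All its obese levels lay below that median, and without its lean FBC arrays Calcb would not have been among the genes tested. Its lack of overlap is therefore no separate support. Adcy6, an adenylyl cyclase that makes cyclic AMP, was higher by 1.39 (SE 0.22, limma adjusted p = 0.013). St18, a zinc finger transcription factor, and Lad1, an anchoring filament protein, were called with changes of 1.31 and 1.09, and the other probe set of St18 had the opposite sign, which took its change to 0.59 without a call when the probe sets were averaged. AA467197, named after its values were seen, had levels of 6.99 to 8.13 in FB and 8.9 to 9.77 in FBC (change 1.91, SE 0.31, limma adjusted p = 0.013).

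Bub1, a kinase of the mitotic spindle checkpoint, was the cell cycle gene called without the block. FB arrays read 5.82, 5.49, 5.81 and 5.83, near the array median, and FBC arrays 7, 6.83, 6.83 and 7.61. Its change was 1.33 (SE 0.25, limma adjusted p = 0.039), and it lost the call without any one of the 8 lean arrays (adjusted p up to 0.115). Averaged over its probe sets, the change was 0.84 and did not pass. Aurkb, the kinase of the chromosomal passenger complex, had a change of 1.16 and adjusted p of 0.0524 without and 0.0483 with the block in limma.

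The remaining genes called as higher only with the block had changes of 0.98 to 1.75. They were Galnt9, a transferase that starts O-glycans, Grap2, an adaptor of receptor signalling, F7, coagulation factor VII, Shcbp1, a protein of dividing cells, Efnb2, a ligand of Eph receptors, Ahnak2, Pkn3, a kinase of the protein kinase C superfamily, Rras2, a small GTPase, Evl, an actin regulator, Slc9a7, a sodium and proton exchanger, Htra4, a serine protease, Speg, Bex6 and A630072M18Rik. Those from Rras2 onwards fell outside the naming rule and were named after their values were seen. Galnt9 at 1.75 and Grap2 at 1.56 were the highest, both with FB means below the array median. Neither would have been tested without its lean FBC arrays. Their limma adjusted p with the block was 0.0448 and 0.00904. Pkn3, Htra4 and Speg had FB means below the median as well, so these sizes are imprecise.

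**Figure D2:**
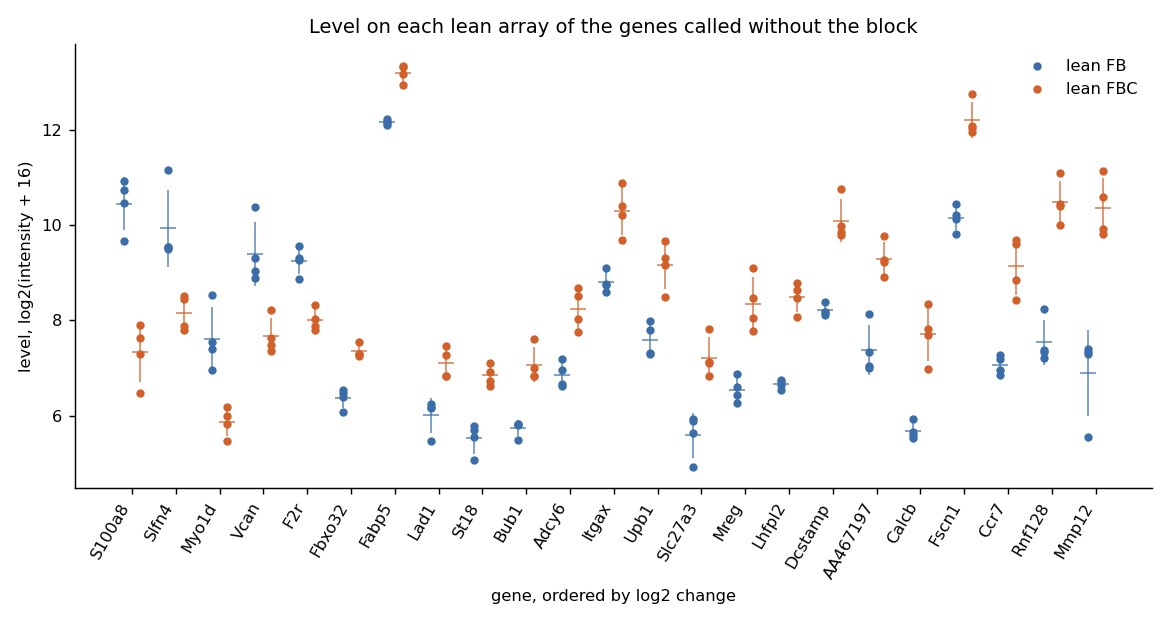
Level, log2(intensity + 16), on each of the 4 lean FB (blue) and 4 lean FBC (orange) arrays for the 23 genes called without the block, ordered by log2 change; horizontal lines are means and vertical bars 1 SD (n = 4). The groups do not overlap in any of the 23, from S100a8, where FBC lies at 6.48 to 7.91 below FB at 9.66 to 10.92, to Mmp12, where it lies at 9.82 to 11.14 above 5.54 to 7.4.

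S100a8 had the lowest change of all called genes. With S100a9 it forms calprotectin, the calcium and zinc binding complex that makes up much of the cytosol of neutrophils and is also carried by fresh monocytes. S100a8 read 9.66, 10.92, 10.47 and 10.73 in FB and 7.3, 7.91, 7.62 and 6.48 in FBC, a change of -3.11 (SE 0.59, limma adjusted p = 0.039, and 0.00442 with the block). Without FB array 4 its limma adjusted p was 0.0796, and without FBC array 4 it was 0.121. S100a9 read 8.74, 9.2, 8.7 and 8.78 in FB and 6.06, 7.46, 7.39 and 5.83 in FBC. Its change of -2.17 had limma adjusted p of 0.153 without and 0.0347 with the block. In both genes every FBC array was below every FB array, and the 3 numbers other than 4 gave changes of -2.74 and -1.91.

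The 2 calprotectin genes lie on the same chromosome, S100a8 on the plus strand with its promoter at chr3:90668821-90669120 and S100a9 on the minus strand with its promoter at chr3:90695672-90695971. Both promoters are shown 5' to 3' along their own gene, as the start regions of the neighbours that were low together.
S100a8: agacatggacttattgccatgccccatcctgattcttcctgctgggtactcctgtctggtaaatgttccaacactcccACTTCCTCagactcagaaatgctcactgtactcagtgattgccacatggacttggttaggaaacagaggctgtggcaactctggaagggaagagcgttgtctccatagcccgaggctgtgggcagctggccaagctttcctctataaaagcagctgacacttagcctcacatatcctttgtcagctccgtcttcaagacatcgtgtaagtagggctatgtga
S100a9: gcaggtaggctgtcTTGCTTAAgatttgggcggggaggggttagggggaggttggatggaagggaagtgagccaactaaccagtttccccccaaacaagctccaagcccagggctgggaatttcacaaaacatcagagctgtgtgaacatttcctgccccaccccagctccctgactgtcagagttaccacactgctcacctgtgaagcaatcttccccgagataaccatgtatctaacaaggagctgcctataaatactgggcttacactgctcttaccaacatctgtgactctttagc
The capitals in S100a8 are PU.1 letters on the reverse strand with the first base at -172, and those in S100a9 are C/EBP letters at -236. Of the 11 lower genes, 3 held C/EBP letters (Plac8, S100a9 and Sorl1), 2 held AP-1 letters (F2r and Slfn4) and 1 PU.1 letters. These letters occur in 10.8%, 7.81% and 3.2% of all single promoters, while a gene was counted if any of its promoters held them.

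Markers of neutrophils were low together in FBC. Their list, like the others below, was chosen with earlier results of these data known. All 10 members tested had a lower FBC mean, with a median change of -1.13, and in 8 of them all FBC arrays lay below all FB arrays, which 2.15% of all genes tested did. Cxcr2, the neutrophil chemokine receptor, read 6.26 to 6.48 in FB and 4.64 to 5.79 in FBC, and its change of -1.20 did not pass (limma adjusted p = 0.22). Cd177, a surface protein of neutrophils, and Lcn2, a granule protein, had changes of -1.50 and -1.13 with limma adjusted p of 0.204 and 0.5 (named after their values were seen). The summed normalised intensity of the 13 measured markers was 5729 to 7102 on the FB arrays and 951 to 3553 on the FBC arrays, and Ltf lay below the array median on all 8. S100a8 and S100a9 are members of this list, and from bulk RNA fewer cells of a type and less RNA per cell cannot be told apart.

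Genes of monocytes were among the other lower genes. Vcan, the matrix proteoglycan versican, read 8.88, 9.04, 9.3 and 10.37 in FB and 8.22, 7.63, 7.35 and 7.49 in FBC. Its change was -1.72 (SE 0.33, limma adjusted p = 0.0405), the block took the adjusted p to 0.0536, and 4 of its 7 other probe sets had the same sign. With the mean of its probe sets the change was -0.46 and did not pass. Plac8, a cysteine-rich protein of monocytes and granulocytes, had the levels 10.87, 11.19, 11.1 and 13.2 in FB and 8.47, 8.87, 8.81 and 10.8 in FBC. Within every number it was lower by 2.29 to 2.41, so its change of -2.35 was called with the block (limma adjusted p 0.0132) and not without it (0.0969). Ace, the angiotensin converting enzyme, had a change of -1.50 and limma adjusted p of 0.0859 and 0.0272. Of the 17 monocyte genes tested, 1 was called lower without the block and 2 with it, against 0.042% and 0.117% of all genes tested. In 3 all FBC arrays lay below all FB arrays, as in 2.15% of all genes tested, and the median change was -0.24.

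Slfn4, a Schlafen protein of myeloid cells induced by interferon, read 9.54, 9.54, 9.5 and 11.15 in FB and 8.45, 7.8, 7.88 and 8.51 in FBC (change -1.77, SE 0.35, limma adjusted p = 0.0477). Without FB array 4, its highest value, the change was -1.36 (limma adjusted p = 0.0531). Myo1d, an unconventional myosin, had a change of -1.74 (SE 0.28, limma adjusted p = 0.013), and of -0.999 without a call when its probe sets were averaged. F2r, the thrombin receptor, read 8.87 to 9.56 in FB and 7.8 to 8.32 in FBC, a change of -1.24 (SE 0.23, limma adjusted p = 0.0313). Without FB array 4 the limma adjusted p of F2r was 0.067, and without FBC array 4 it was 0.0891. F5, coagulation factor V, was called with the block (change -2.95, limma adjusted p = 0.005), and 0.0571 was its adjusted p without it. Rab44, a large Rab GTPase of granulocytes and mast cells, had a change of -2.79 and limma adjusted p of 0.0558 and 0.0132.

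Hdc makes histamine, G0s2 inhibits the lipase of lipid droplets, Ctse is an aspartic protease, Sorl1 is a sorting receptor and Mucl1 a secreted mucin-like protein. All 5 were lower only with the block, with changes of -1.19 to -1.60. Among the 15 lower genes 11 had their highest FB level on FB array 4, which had a high actin ratio as well as high Siglecf. The share of all genes tested with this pattern was not counted. Of the higher genes, Rnf128, Itgax and Ccl22 were also highest on that FB array, while Mmp12, Fscn1 and Calcb were lowest. F5 read 12.68 on FB array 4 against 9.88 to 9.96 on the other FB arrays, and Rab44 11.16 against 7.7 to 8.33. Without that array the change of F5 was -2.26 (limma adjusted p = 0.0994) and that of Rab44 -2.00 (0.0244), while Sorl1 and Ctse had -0.63 and -0.92 (0.521 and 0.23). Without both arrays of number 4 the block model gave -2.69 for F5 and -2.21 for Rab44, with adjusted p of 0.0375 and 0.0218, while Sorl1 and Ctse lost the call (0.216 and 0.082).

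**Figure D3:**
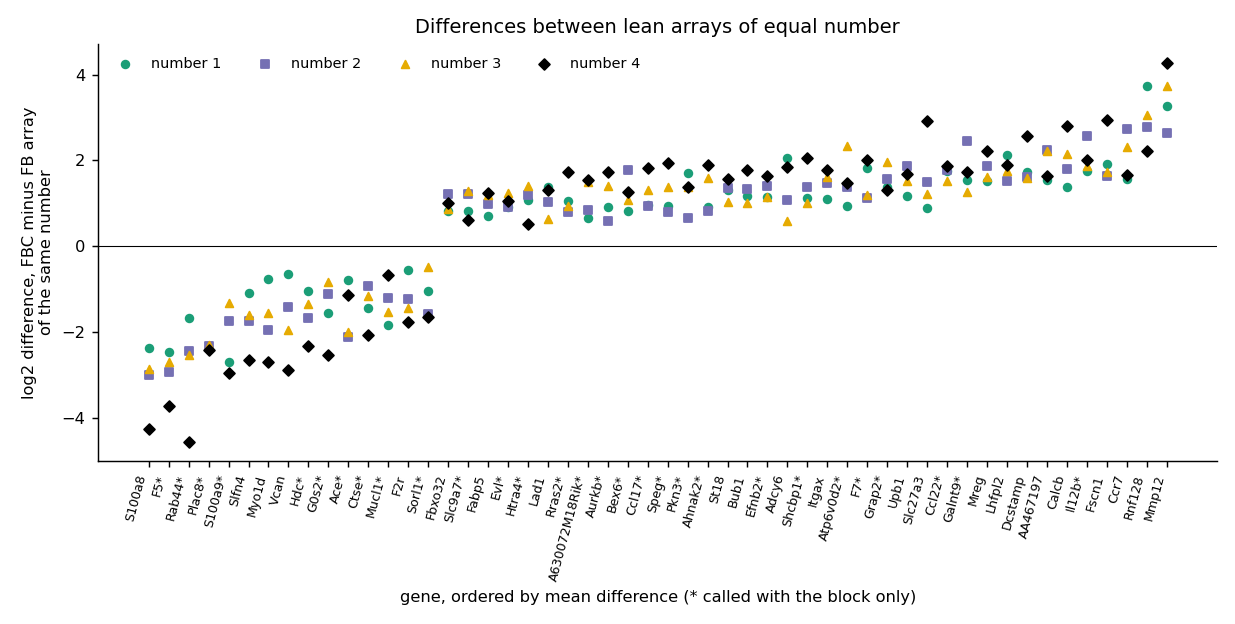
Log2 difference between the FBC and the FB array of each number (vertical axis) for the 52 genes called in either model, ordered by mean; an asterisk marks genes called only with the block. All differences of a gene have one sign, and number 4 (black diamonds) gives the lowest difference of S100a8, F5 and Rab44 and the highest of Mmp12.

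Leaving out lean arrays cost many of the 23 calls. The direction could not turn, since the groups of all 23 genes did not overlap. Without FB arrays 1 to 4 in turn, 16, 8, 9 and 15 of the 23 genes were still called, and without FBC arrays 1 to 4, 18, 7, 8 and 12. Kept without each of the 8 arrays were Rnf128, Fscn1, Calcb, Lhfpl2, Slc27a3 and Adcy6. S100a8 and Dcstamp each lost the call for 7 of the 8 arrays left out, and Slfn4 for all 8. In the block model without number 1, 2, 3 or 4, 12, 5, 4 and 6 of the 23 were called. Over the 52 genes the change without both arrays of number 4 was 0.738 to 1.17 times the change over all arrays.

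Set against lists of genes with known roles, the cell cycle list had the highest median. The lists and their members were chosen with earlier results of these data known, so their counts beside those of all genes are descriptions only. Its 28 tested members, which drive DNA synthesis and mitosis, had a median change of 0.68 against -0.00035 over all genes, and 26 had a higher FBC mean, as 49.9% of all genes did. In 14 the FBC arrays all lay above the FB arrays, which 3.49% of all genes tested did. Called higher were 1 without the block and 2 with it, against 0.151% and 0.311% of all genes tested. Ube2c, which loads ubiquitin for the exit from mitosis, had a change of 1.42 (limma adjusted p = 0.0558), Cdk1, the mitotic kinase, 1.10 (0.232), and Mki67, the proliferation antigen, 0.44 (0.683); these 3 were named after their values were seen. FBC array 4, one of the pair with a high actin ratio, had the highest mean of the list. Without both arrays of number 4, the median was 0.49, and 14 members still had higher FBC arrays throughout, where 9.84% of all genes had.

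The list of dendritic cell identity and migration had 26 tested members with a median change of 0.38, of which 22 had a higher FBC mean. A higher FBC mean was found for 49.9% of all genes tested. Called higher were 3 members without the block (Ccr7, Fscn1 and Itgax) and 5 with it, against 0.151% and 0.311% of all genes. FBC arrays lay above all FB arrays in 7 members and in 3.49% of all genes. Itgax encodes the marker of the sort, so its call is not a result apart from the sort. Ly75, an endocytic receptor of dendritic cells, had a change of 0.98 (limma adjusted p = 0.195), and Zbtb46, the transcription factor that marks the lineage, 0.87 (0.481). MHC class II and its accessory genes had 17 tested members, a median of 0.08 and no call in either model. H2-DMb2, which helps to load peptide, had a change of 1.35 (limma adjusted p = 0.144), and H2-Ea, a class II chain, -1.25 (0.187).

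Lipid-associated macrophage genes, known from the crowns around dying adipocytes, had 26 tested members and a median change of 0.27. Mmp12 and Fabp5 were called without the block and Atp6v0d2 with it, where 0.151% and 0.311% of all genes were called higher. A higher FBC mean was found for 23 members and 49.9% of all genes tested. In 6 members and 3.49% of all genes, FBC arrays lay above all FB arrays. Ctsk, a cathepsin that degrades collagen, had a change of 1.54 (limma adjusted p = 0.268), and Gpnmb, a glycoprotein of phagocytes, 1.36 (0.192); both were named after their values were seen. Lipid uptake and storage genes had a median of 0.04 over 26 members with 1 call, Fabp5. Lysosomal hydrolases and membrane proteins had a median of 0.01 over 40 members, with no call without the block, and Atp6v0d2 higher and Ctse lower with it. With the block, 0.311% of all genes were called higher and 0.117% lower.

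Genes of oxidative phosphorylation had small changes. Of 30 tested, 27 had a higher and 3 a lower FBC mean, where 49.9% of all genes had a higher one. The median change was 0.18, and none was called in either model. In 2 the groups did not overlap, as in 5.64% of all genes tested. Glycolysis genes had a median of 0.05 over 17 members with no call. Classic activation genes had a median of 0.11 over 22 members, with Ccr7 called without the block and Il12b added with it, and alternative activation genes 0.07 over 25, with Mmp12 called without the block and Ccl22 and Ccl17 added with it. Matrix genes held 2 calls in opposite directions, Mmp12 higher and Vcan lower, over 21 members with a median of -0.15. Of all genes tested, 0.151% were called higher and 0.042% lower without the block, and 0.311% higher with it.

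Interferon-stimulated genes had a median of -0.08 over 22 members and no call in either model. In 6 of them all FBC arrays were below all FB arrays (background 2.15%), among them Oas1a and Oas2, sensors of double-stranded RNA, with changes of -1.02 and -0.81 (limma adjusted p 0.167 and 0.358). Without number 4, 7 members had FBC arrays below all FB arrays and 5 had them above, where 10.5% and 9.84% of all genes had, and the median was -0.03. Macrophage identity genes had a median of -0.10 over 19 members without a call, and Cx3cr1, the fractalkine receptor, had a change of -1.17 (limma adjusted p = 0.198). Genes of resident perivascular macrophages, among them Timd4, a receptor for phosphatidylserine, with a change of 0.63 (limma adjusted p = 0.691), had a median of -0.25 over 28 members with no call, and -0.04 without number 4. Without FB array 4 alone the median was -0.55, and without FBC array 4 alone it was 0.32. Chemokine receptors had 1 call of 20, Ccr7, and a median of -0.28, and chemokines no call of 27 without the block, 2 with it and a median of 0.02. Leukocyte integrins had 1 call of 15, Itgax, which encodes the marker of the sort. Of all genes tested, 0.151% were called higher without the block and 0.311% with it. No member was called in either model among 14 complement genes (median -0.49), 23 of phagocytosis (-0.15), 7 Fc receptors (-0.11), 15 Toll-like receptors (-0.14), 26 myeloid transcription factors (-0.0022) and 28 immediate early genes of tissue digestion (-0.02). The complement median was -0.88 without FB array 4 and -0.002 without FBC array 4, and that of phagocytosis -0.32 and 0.092.

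Most list medians depended on single arrays. With 1 lean array left out at a time, 13 of the 34 medians turned sign for at least 1 array. Those of 5 lists neither turned nor moved by over 1.5 times: cell cycle, neutrophil, lipid-associated macrophage, mast cell and basophil, and B cell. The cell cycle median then ran from 0.50 to 0.78 and the neutrophil median from -1.19 to -1.01.

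Transcripts of other cells of fat were measured in both populations. All 20 fibroblast and preadipocyte markers tested had a lower FBC mean, with a median change of -0.62 and no call in either model, and their summed intensity was 16244 to 44296 on the FB arrays and 14962 to 33435 on the FBC arrays. The median was -1.18 without FB array 4 and -0.12 without FBC array 4, and no member had groups apart over all 8 arrays. Dcn, a proteoglycan of fibroblasts, read 13.3 to 13.43 on FB arrays 1 to 3 and 12.41 to 12.96 on FBC arrays 1 to 3, but 10.56 and 9.51 on the arrays of number 4. Without number 4, 14 of the 20 had FBC arrays below all FB arrays, where 10.5% of all genes had. Their part in the results was not tested.

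For eosinophils the summed intensity of 7 measured markers was 2927 to 18684 in FB, the highest on array 4, and 3688 to 10618 in FBC, with Prg2 and Epx below the median on all 8 arrays. Mast cell and basophil markers (6 tested, median -0.55) included Hdc, which was called lower with the block, as 0.117% of all genes tested were. Mcpt4 and Mcpt8 lay below the median on all 8. B cell markers had a median of -0.43 over 8 members, and Ms4a1, the CD20 antigen, read 7.66 to 8.44 in FB and 5.73 to 7.17 in FBC (limma adjusted p = 0.124). T and NK cell markers had a median of -0.04 over 10, with Cd3e, Cd3d, Cd4 and Ncr1 below the median on all 8 lean arrays. Mesothelial, adipocyte, endothelial, and erythroid and platelet markers had medians of -0.39, 0.02, -0.10 and -0.41 over 12, 9, 12 and 6 members, and no call in either model.

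**Figure D4:**
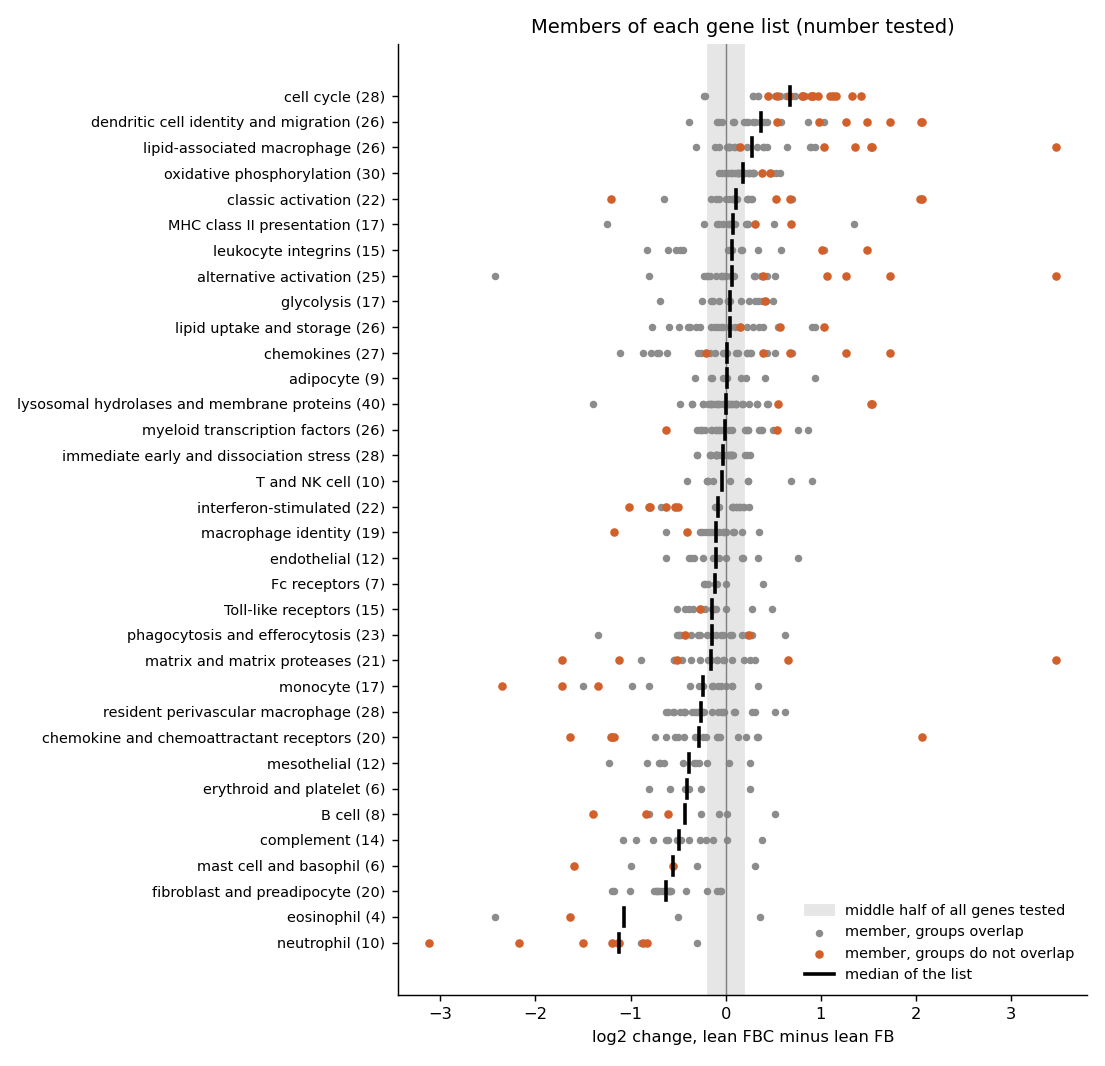
Log2 change from lean FB to lean FBC (horizontal axis) of each tested member of 34 gene lists (vertical axis, number tested in brackets); orange points are members whose groups do not overlap, black bars list medians, and the grey band the middle part of all genes tested, -0.19 to 0.19. The cell cycle median is highest at 0.68 and the neutrophil median lowest at -1.13.

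In obese mice the same 2 populations differed in more genes: 997 of 11915 were called there without the block (8.37%), 605 higher (5.08%) and 392 lower (3.29%), and 1659 with it (13.9%). Obese FB array 4 had an actin ratio of 45, against 1.15 to 5.76 on the other obese arrays. Without it 599 genes were called in obese mice, and 1376 without the 3 arrays of high actin ratio, which are this array and the lean arrays of number 4. The part of the actin ratio in these counts was not tested. Of the 23 genes called in lean mice, 22 had the same sign in obese mice and 17 were called there too, 14 higher and 3 lower, against 54.4% of all genes with the same sign. Side by side, the change was 3.48 in lean and 4.24 in obese mice for Mmp12, 2.06 and 3.26 for Fscn1, 1.49 and 2.20 for Itgax, 2.94 and 1.59 for Rnf128, and -3.11 and -2.40 for S100a8. The difference between the obese and the lean change was tested as an interaction in the same model and called for 19 genes (0.159%), and for 231 with the block (1.94%). For Mmp12, Fscn1, Itgax, Rnf128 and S100a8 the limma adjusted p of the difference was 0.686, 0.226, 0.411, 0.148 and 0.733.

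Of the 52 genes, 44 had the same sign in obese mice, and the difference was called without the block for 2. Calcb had a change of 2.03 in lean and 0.13 in obese mice, a difference of -1.90 (SE 0.36, limma adjusted p = 0.0451). Its obese levels, 4.37 to 5.36, all lay below the array median of 5.87 and may be background. For Efnb2 the changes were 1.34 and -0.81, a difference of -2.15 (limma adjusted p = 0.0412), with an obese FBC mean of 5.47, also below that median. These differences lost the call in 20 and 19 of 33 other settings, with adjusted p of up to 0.157 and 0.119. Vcan was lower in both, by -1.72 and -4.01, with a limma adjusted p of the difference of 0.0611 without and 0.0364 with the block, and F2r had changes of -1.24 and 0.20 (0.0683 and 0.0441). Hdc had changes of -1.60 and -3.55, with 0.0897 and 0.0312. Grap2, Pkn3, Bex6 and Htra4, with changes of 1.05 to 1.56 in lean and -0.62 to -0.04 in obese mice, had a called difference with the block only. All obese levels of Grap2 lay below the array median.

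**Figure D5:**
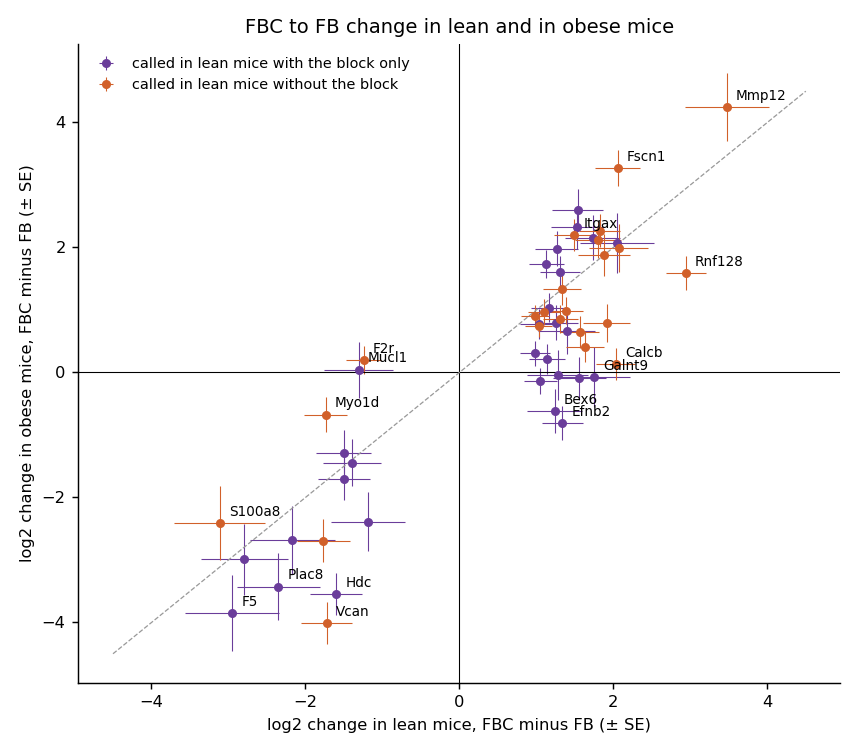
Log2 change from FB to FBC in obese (vertical axis) against lean mice (horizontal axis) for the 52 genes called in lean mice, with 1 standard error from the model without the block; the dashed line marks equal changes. Mmp12 lies at 3.48 and 4.24, and Calcb and Efnb2, whose difference was called, lie near or below 0 in obese mice. All obese levels of Calcb were below the array median.

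The genes whose level was most like that of Itgax over all 16 arrays, by Pearson correlation, were F7 (0.922), Il7r (0.917), Vsig8 (0.913), Cd200r1 (0.908) and Mreg (0.905). The arrays share the sort by CD11c, so these values describe the 4 groups as much as single arrays. Within the 8 lean arrays the correlations were 0.921, 0.923, 0.964, 0.917 and 0.983. The lean change was 1.28 for Il7r, the receptor chain for interleukin 7 (SE 0.32, limma adjusted p = 0.144), 1.25 for Vsig8 (0.135) and 0.93 for Cd200r1, an inhibitory receptor of myeloid cells (0.141).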

How the data were processed

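The authors deposited 1 intensity per probe set and array, on a linear scale, for 16 arrays. Per the submitters' processing notes the software was Affymetrix Expression Console. Its version and summarization method are not stated there or in the labels, and the 2% trimmed mean was 250 on every array. No detection calls were used, so a level near the array median may be background.

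From these, log2(intensity + 16) was taken and quantile-normalised over probe sets other than 64 controls. Of 45101 probe sets, 34945 carried 1 gene symbol, 932 several and 9160 none, and those with several or none were left out. A RefSeq gene table held the gene ID of 34741 of the former. Each of 18193 genes was represented by its probe set with the highest mean, and the 11915 above the array median on at least 4 arrays were tested. Calcb, Slc27a3, Grap2 and Galnt9 passed this filter only with their lean FBC arrays. Calcb and Slc27a3 were also called with no filter. No other scaling tried moved the median lean change by more than 0.085.

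The main model was limma 3.58.1 in R 4.3.3 (lmFit, eBayes) on 4 groups of 4 arrays, with 12 residual and 16.5 total degrees of freedom. The second held each number within a genotype as a block, with 6 and 10.8. Benjamini-Hochberg adjustment ran over all genes tested, at a threshold of 0.05. The design text names 4 lean mice but no label ties a number to a mouse. The pairing by number was an assumption. The residual correlations of equal numbers in lean arrays were all above 0.1, but those of unequal number among arrays 1 to 3 reached 0.367. FB array 1 correlated best with FBC array 3, so the correlations do not settle the pairing. The 29 genes called only with the block rest on the assumed pairing.

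On simulated data of the same size for lean FBC against FB, with independent arrays, the main model recovered 61 of 100 genes changed by a log2 of 1 and 95 of 100 changed by 2, with 11 false calls. On the same independent arrays the block model recovered 45 and 86, with 8 false calls. With a mouse effect shared by equal numbers, the block model recovered 56 and 97, with 12 false calls. The main model recovered 56 and 96 there, with 2 false calls. In this simulation the block gave no clear gain. Its mouse effect had the same share of the variance in every gene and number, while the lean arrays of number 4 correlated at 0.595. It therefore cannot decide whether the block gains on these arrays.

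Named genes were the sort markers, called genes with groups apart (up to 15 in each direction, clone names left out), up to 10 in each direction called only with the block, and up to 4 called members of each of 34 lists, or the 2 members with the largest change. The likeness to Itgax used 5 genes. The members, lists and rules were chosen with earlier results of these data known. No column was left out. The number of arrays limits the precision. Promoter sequences are from RefSeq GRCm38.p6. Python 3.11.15, pandas 2.3.3 and matplotlib 3.10.9 were used for promoters and figures. Other settings covered the filter, the probe set rule, the normalisation, the pseudocount, array weights, blocks, the actin ratio and each array left out.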

Additional observations from a re-analysis of the deposited data

Results flagged for a closer look

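In 8 of 52 groups of 4 lean values 1 array lay far from the other 3, where chance flags about 1 in 20 groups. FBC array 4 read 11.94 for Adgre1, below the others, 12.76 for Fscn1 and 7.54 for Fbxo32, both above them. FB array 4 read 5.54 for Mmp12, below the others, and 8.23 for Rnf128 and 11.15 for Slfn4, above them. Bub1 read 5.49 on FB array 2 and Lad1 5.46 on FB array 1, each below the other 3. Of these 8 values 6 belong to the arrays of number 4.

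The change from FB to FBC differed between obese and lean mice, by the interaction test, without the block for 2 of the 52 genes called in lean mice in either model: Calcb, and Efnb2, which was called in lean mice only with the block. The obese minus lean difference was -1.9 for Calcb and -2.15 for Efnb2. All obese levels of Calcb and the obese FBC mean of Efnb2 lay below the array median.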

How the results depend on the processing

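No alternative turned the direction of any of the 23 genes called in lean mice. With arrays left out it could not turn, since the groups of all 23 did not overlap. Their number, 23, was 38 with a stricter filter, 42 with median centring, 1310 with array weights, 9 with the lean arrays alone, 51 with the replicate block, 74 with mouse as a random block, 62 with the actin ratio as a covariate and 15 without the 3 arrays of high actin ratio. It was 8 to 34 with each array left out, and in the replicate block 20, 7, 6 and 10 without numbers 1 to 4. The normalisation moved the share of higher calls from 18 of 23 to 39 of 42 with median centring. The 997 calls in obese mice became 557 with a 2-fold minimum, 2201 with array weights, 1659 with the replicate block and 1745 with mouse as a random block, 552 to 1326 with each array left out, and 1692 in the replicate block without number 4. The 19 calls of the difference became 9 with all probe sets singly, 3 with no filter, 4 with a pseudocount of 1, 30 with trend and robust settings, 1535 with array weights, 231 with the replicate block, 161 with mouse as a random block and 303 without the 3 arrays of high actin ratio. They were 2 to 348 with each array left out, the highest without lean FB array 4, and 4 to 197 in the replicate block with a number left out. The causes were not tested, except that fewer arrays leave fewer degrees of freedom.

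Fcgr4, with a change of -0.23 and no call, was -0.51 to 0.12 with each array left out, the latter without lean FB array 4, and Klf2, with -0.30 and no call, turned to 0.026 with array weights. With probe sets averaged per gene the change of 7 of the 23 genes moved by over 1.5 times, to 0.59 for Fscn1 and for St18, 0.65 for Lhfpl2, 0.84 for Bub1, -0.999 for Myo1d and -0.46 for Vcan, each without a call, and to 1.58 for Fabp5 with one. The pairing changed no call of the 23 other than that of Vcan.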

Other observations

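Most genes that separated the populations in obese mice had changes of the same sign in lean mice. Of the 997 genes called in obese mice, 743 had the same sign in lean mice (74.5%), where 54.4% of all genes tested did. Their median change was 1.07 in obese mice, taken without sign, and 0.20 in lean mice in the direction of the obese change. They were chosen by their obese change, and for the 23 genes chosen by their lean change the order was the other way, with medians of 1.74 in lean and 1.34 in obese mice. In 161 of the 997 (16.1%) the lean groups did not overlap in the direction of the obese change, which held for 4.35% of all genes tested. Gpnmb, a glycoprotein of phagocytes, had changes of 3.25 in obese (limma adjusted p = 8.95e-05) and 1.36 in lean mice (0.192). Ctsk, a collagen-degrading cathepsin, had 2.68 (0.00199) and 1.54 (0.268). Socs2, a suppressor of cytokine signalling, had 2.00 (7.82e-05) and 1.07 (0.0571). Fpr2, a receptor for formyl peptides, had -3.44 (3.22e-05) and -1.20 (0.203), and Hp, haptoglobin, -2.93 (0.000126) and -1.35 (0.167). These genes were chosen after their values were seen.

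Other members of the lists lay apart in one group only. Itgal, an integrin chain of leukocytes, had a change of -3.04 in obese mice (limma adjusted p = 0.00139) and of -0.52 in lean mice (0.852), and Ccr2 had -1.25 (0.000323) and -0.08 (0.955). Whether these changes differ between lean and obese mice is a separate test, with adjusted p of 0.153 for Itgal and 0.0611 for Ccr2.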
